A study of Homo sapiens with 7 samples.

Results

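The JAK-STAT genes described here are 2 Janus kinases (JAK1, JAK2), 3 STAT transcription factors (STAT3, STAT5A, STAT5B) and 4 genes that STAT5 is known to switch on (PIM1, SOCS2, CISH, BCL2L1). They were found by symbol among the Ensembl identifiers of the exon count files and are 9 of 62238 genes. All 9 passed the minimum of 30 reads over the 3 RNA-seq libraries. The same symbols were looked up in a deposited list of 1515 sites of RNA bound to RBM15. RBM15 is a nuclear RNA-binding protein of the spen family, and the study asked how it acts on splicing and gene expression in megakaryocytic leukemia cells.

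The cells were MEG-01, a human megakaryoblastic line from chronic myeloid leukemia. All 7 libraries came from cells at passage 5 that were labelled as carrying lentiviral transgenes, grown in RPMI1640 with serum and harvested in exponential phase. The RNA-seq compared 1 control library, which carried no knockdown label, with 2 lines in which RBM15 was knocked down by shRBM15#1 or shRBM15#2. No source used here says whether an empty vector was in the control, so the knockdown and the delivery of an shRNA cannot be told apart in any difference from the control. RNA immunoprecipitation followed by sequencing (RIP-seq) was done with normal immunoglobulin or with an antibody against RBM15, and the 4 libraries were read on a strand-specific protocol. Only 1 library of each antibody could be placed in a group, because for the remaining ones the antibody label conflicts with the side they take in the authors' comparison.

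JAK-STAT signaling carries the message of cytokines from the cell surface to the nucleus. A cytokine receptor has no kinase of its own, so bound JAKs phosphorylate it and then the STATs, which pair up, enter the nucleus and bind promoters. In red cell precursors the erythropoietin receptor EPOR signals through JAK2 to STAT5. The BCR-ABL1 kinase of chronic myeloid leukemia, which MEG-01 carries, activates STAT5 without a cytokine. Among the targets, SOCS2 and CISH feed back on the receptors, PIM1 is a survival kinase and BCL2L1 encodes the anti-apoptotic protein Bcl-xL.

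The counts on exon bins summed to 53230029, 41629454 and 52458857 in the control, shRBM15#1 and shRBM15#2, where a read over several bins counts in each. Of these counts and the reads assigned to no gene together, the latter made up 32.01% in shRBM15#1. In the control and shRBM15#2 they made up 23.16% and 23.52%. Levels are given as CPM, the usual read count scaled to library size, here after TMM scaling between libraries. RBM15 itself was at 80.2 CPM in the control against 43.7 and 40.7 in the lines, a log2 fold change of -0.93 ± 0.23 (SE) with an adjusted p of 0.0908 by edgeR's quasi-likelihood test. Of the 9 megakaryocyte markers, 5 were at 1 CPM or more in the control. ITGA2B was the highest of them at 919, 476 and 607 CPM. PPBP (2.38, 6.12 and 56.9 CPM), ITGB3 (6.28, 17.9 and 51.8 CPM) and GP6 (20.5, 23.1 and 40.7 CPM) were higher in both lines than in the control, and PF4 and GP9 stayed under 0.1 CPM in every library. The 8 erythroid markers summed to 948 CPM in the control against 4359 and 4300 in the lines, and 4 of them (HBA2, HBG1, HBG2 and ALAS2) rose at an adjusted p under 0.01, although reads of near-identical globin copies are uncertain in their assignment. The 9 megakaryocyte markers summed to 953, 529 and 761 CPM, the 6 myeloid markers to 135, 38.4 and 72.3 CPM and the 5 lymphoid markers to between 4.47 and 5.36 CPM. Of the myeloid markers, CTSG fell at an adjusted p of 0.00426 by edgeR, from 95.8 CPM to 3.73 and 8.55. CSF1R, at 2.71, 7.08 and 8.26 CPM, and CD14, at 0.263, 0.648 and 3.93 CPM, were higher in both lines. LYZ lay on both sides of the control, at 35.3, 25.6 and 50.9 CPM. MPO was at 0.647, 1.30 and 0.594 CPM, and ELANE stayed under 0.1 CPM. The part of these markers in the levels below was not tested. In bulk RNA, fewer cells of a type and less RNA per cell cannot be told apart.

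None of the 9 genes passed the study's limit of an adjusted p under 0.01, which 0.346% of the 24887 genes tested passed, and none passed 0.05, which 1.74% passed. At an unadjusted p under 0.05, 5 of the 9 passed by edgeR's quasi-likelihood test, against 18.8% of all genes. DESeq2 called 1 of the 9, PIM1, at an adjusted p under 0.01, which 2.11% of all genes passed by that tool. The 5 genes STAT5A, STAT5B, PIM1, SOCS2 and CISH were lower than the control by over 0.5 on the log2 scale in both lines, against 13.5% of all genes tested. The median log2 fold change was -0.64 over the 9 genes and 0.02 over all genes. Because the 9 genes were chosen with earlier results of these data known, setting them beside all genes is no independent test. The 2 lines left 1 residual degree of freedom per gene, and edgeR combined this spread with that of the other genes tested. SOCS2 and STAT5A thus had the same SE of 0.21, although the lines of SOCS2 lay closer together. The labels do not say whether the lines were cultured separately. The p-values therefore rest on the spread between these libraries, pooled over genes, and do not measure that between separate cultures.

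**Figure D1:**
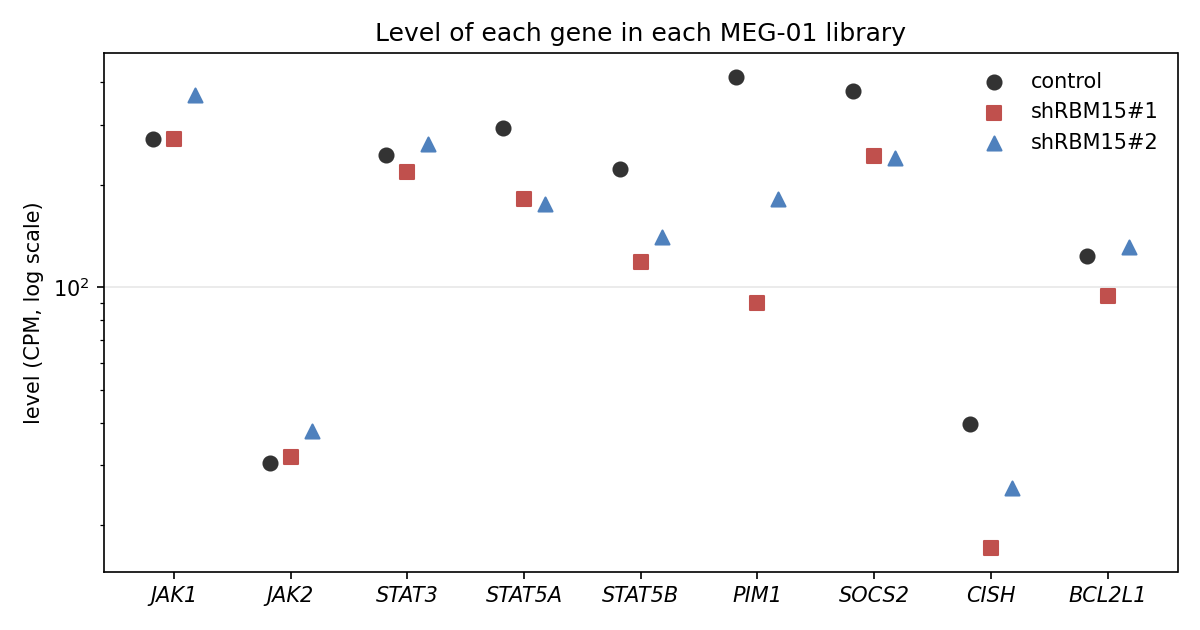
Level in CPM on a log axis of each of the 9 genes in the control library (circle), the shRBM15#1 line (square) and the shRBM15#2 line (triangle). PIM1 had the highest level in the control, 416 CPM, and was at 89.9 and 181.7 CPM in the lines, while the 3 libraries of JAK2 lay between 30.4 and 37.8 CPM.

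Per length of exonic sequence, PIM1 led in the control at 140 CPM per kb. SOCS2 (55.7), STAT5A (51.2), JAK1 (43.3), BCL2L1 (37.3), STAT5B (34.6) and STAT3 (27.9 CPM per kb) followed. CISH at 7.78 and JAK2 at 5.25 CPM per kb were the lowest of the 9. With a single control library, the spread of these levels is not known, and neighbours in the order cannot be separated. The order also depends on the annotation, because a read over several bins counts in each and the length takes in every annotated bin. In SOCS2, for example, bin 020 of 9 bases had 873 control reads. In the shRBM15#1 line JAK1 led with 43.1 CPM per kb, and in the shRBM15#2 line PIM1 still led with 61.0 and JAK1 followed with 58.2 CPM per kb.

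JAK1 (ENSG00000162434, chr1:65298912-65432187 on GRCh37, minus strand) pairs with the receptors of the gp130 and interferon families. It had 13534 reads in the control, 12186 in the shRBM15#1 line and 19192 in the shRBM15#2 line, or 274, 272 and 368 CPM. The shRBM15#1 line was level with the control and the shRBM15#2 line was above it. The fit to both lines gave a log2 fold change of 0.23 ± 0.26 (SE), with an adjusted p of 0.677. JAK2 (ENSG00000096968, chr9:4985033-5128183, plus strand), the kinase of the EPOR receptor, had 1506, 1422 and 1972 reads, or 30.4, 31.8 and 37.8 CPM. Both lines were above the control, by 0.06 and 0.31 on the log2 scale, and the fit gave 0.19 ± 0.26 with an adjusted p of 0.735.

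STAT3 (ENSG00000168610, chr17:40465342-40540586, minus strand), which relays interleukin-6 and related cytokines, lay on both sides of the control, at 245 CPM in the control against 218 and 264 CPM. Its log2 fold change was -0.03 ± 0.23, with an adjusted p of 0.966. STAT5A and STAT5B are neighbouring genes on chromosome 17 that encode nearly identical proteins, so reads from stretches that both share are uncertain in their assignment. STAT5A (ENSG00000126561, chr17:40439565-40463961, plus strand) had 14591, 8145 and 9165 reads, or 295, 182 and 176 CPM. The lines stood at 61.7% and 59.6% of the control and close to each other. The log2 fold change was -0.72 ± 0.21, with an unadjusted p of 0.0087 and an adjusted p of 0.141.

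STAT5B (ENSG00000173757, chr17:40351186-40428725, minus strand) had 11023, 5300 and 7319 reads, or 223, 118 and 140 CPM. The lines stood at 53.1% and 63.0% of the control, again both below it. The log2 fold change was -0.78 ± 0.23, with an unadjusted p of 0.0072 and an adjusted p of 0.130. Over the settings tried, the adjusted p ranged from 0.11 to 0.177 for STAT5A and from 0.0765 to 0.145 for STAT5B.

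**Figure D2:**
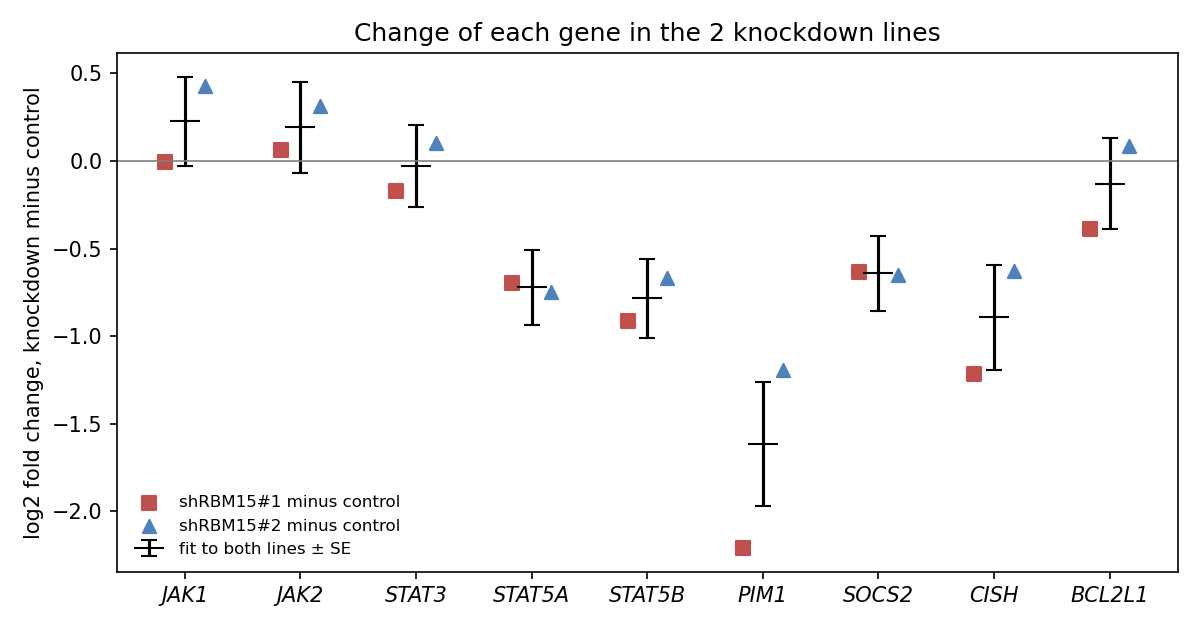
Log2 fold change of each gene in each knockdown line against the control (square, shRBM15#1; triangle, shRBM15#2), with the fit to both lines and its standard error (dash and bar). The points of STAT5A, STAT5B, PIM1, SOCS2 and CISH all lie under -0.5, while the points of JAK1, STAT3 and BCL2L1 fall on both sides of 0 and those of JAK2 lie above it.

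PIM1 (ENSG00000137193, chr6:37137979-37143202, plus strand) had the lowest fitted log2 fold change of the 9. It had 20590 reads in the control, 4023 in the shRBM15#1 line and 9480 in the shRBM15#2 line, or 416, 89.9 and 182 CPM. The lines stood at 21.6% and 43.7% of the control, both below it and apart from each other. The log2 fold change was -1.62 ± 0.35, with an unadjusted p of 0.0014 and an adjusted p of 0.064 by edgeR. The call depended on the method: the adjusted p was 0.0336 with DESeq2's size factors in the same fit, 0.00339 with DESeq2's Wald test and 1.9e-06 without a filter on low counts. Line by line, the log2 fold change was -2.21 and -1.20.

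SOCS2 (ENSG00000120833, chr12:93963590-93977263, plus strand), a member of the suppressor of cytokine signaling family, had 18668, 10906 and 12535 reads, or 377, 244 and 240 CPM. The lines agreed closely, at 64.6% and 63.7% of the control, and the log2 fold change was -0.64 ± 0.21 with an adjusted p of 0.175. CISH (ENSG00000114737, chr3:50643921-50649262, minus strand), of the same family, had 1969, 767 and 1341 reads, or 39.8, 17.1 and 25.7 CPM. Both lines were below the control, at 43.1% and 64.6% of it. The log2 fold change was -0.89 ± 0.30, with an adjusted p of 0.174.

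BCL2L1 (ENSG00000171552, chr20:30252255-30311792, minus strand) lay on both sides of the control. It had 6122, 4237 and 6860 reads, or 124, 94.6 and 131 CPM, with one line below and the other above the control. The log2 fold change was -0.13 ± 0.26, with an adjusted p of 0.831. Whether BCL2L1 differed from the other targets in its change was not tested.

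Paired STAT5 binds the letters TTCNNNGAA, and the sequence before the CISH start is shown because it holds this motif several times. RefSeq (GRCh38.p14) gave the 250 bases before 16 starts of 8 of the 9 genes, all but SOCS2. The motif, which reads the same on both strands, was found in 1 of these 16 windows, that of CISH, and there 4 times. Of 35116 such windows of all genes, 6.57% held it at least once and 0.0142% (5 windows) at least 4 times. Neither the PIM1 window nor those of BCL2L1 held these letters. The CISH window, chr3:50611775-50612024 of GRCh38.p14 on the minus strand, is given 5′ to 3′ with the motif in capitals:
CISH: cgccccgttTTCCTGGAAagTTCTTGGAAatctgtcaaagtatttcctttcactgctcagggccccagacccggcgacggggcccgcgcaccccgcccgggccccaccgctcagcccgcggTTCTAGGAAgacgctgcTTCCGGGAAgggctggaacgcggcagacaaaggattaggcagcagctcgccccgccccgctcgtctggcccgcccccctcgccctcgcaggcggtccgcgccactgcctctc

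The RNA-seq was also counted per exon bin, a stretch of a gene between annotated exon boundaries, so the use of each exon relative to its gene could be compared. The 9 genes held 270 bins, of which 246 had at least 30 reads and were tested with diffSpliceDGE in edgeR. The study's limits were a fold above 1.2 and, without adjustment, a p under 0.05, and 3 of the 246 bins passed both, against 1.45% of all 234192 bins tested. At an adjusted p under 0.05, 1 of the 246 passed, against 0.0205% of all bins. Each of SOCS2, STAT5A and STAT5B had 1 bin past the study's limits, and none of the other genes had a bin at an unadjusted p under 0.05.

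The bin whose use relative to its gene fell most was the first exon of SOCS2, bin 001 (chr12:93963590-93963974, GRCh37, plus strand). It is an untranslated exon of 385 bases that belongs to 1 annotated transcript, SOCS2-201. It had 577 control reads against 150 and 169 in the lines, or 11.7, 3.35 and 3.24 CPM. Its share of all SOCS2 reads was 3.09% in the control against 1.38% and 1.35% in the lines, so both lines lay far below the control and next to each other. Relative to the rest of SOCS2, the bin fell by 1.18 on the log2 scale, with an unadjusted p of 6.9e-06 and an adjusted p of 0.038 by diffSpliceDGE. Each line alone gave -1.19 and -1.22. The adjusted p was 0.156 when bins with any read were tested and 0.00156 with limma voom.

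SOCS2 has further first exons downstream of bin 001, which served as a comparison within the gene. The exon in bin 002 had 122, 74 and 80 reads and a relative log2 fold change of 0.01, with a p of 0.981. The exon in bin 003 had 89, 47 and 50 reads and a relative log2 fold change of -0.20, with a p of 0.574. Set against the second exon of the gene (bins 014 and 015), which all of these transcripts share, the reads of bin 001 came to 0.224 per read in the control against 0.111 and 0.106 in the lines. The same ratio was 0.0473, 0.0548 and 0.05003 for bin 002 and 0.0345, 0.0348 and 0.0313 for bin 003. The ratio of bin 001 was lower in both lines than in the control, and the differences between the first exons were not tested. The other 25 tested bins of SOCS2 ranged from -0.23 to 0.51 in relative log2 fold change, with no p under 0.172. The antisense gene SOCS2-AS1 shares bins 004 to 007 but not bin 001, and it had 280, 172 and 175 reads in its own exons. Across all genes, the tested bin nearest the 5′ end passed the same limits with lower use in 1.13% of 12676 genes.

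**Figure D3:**
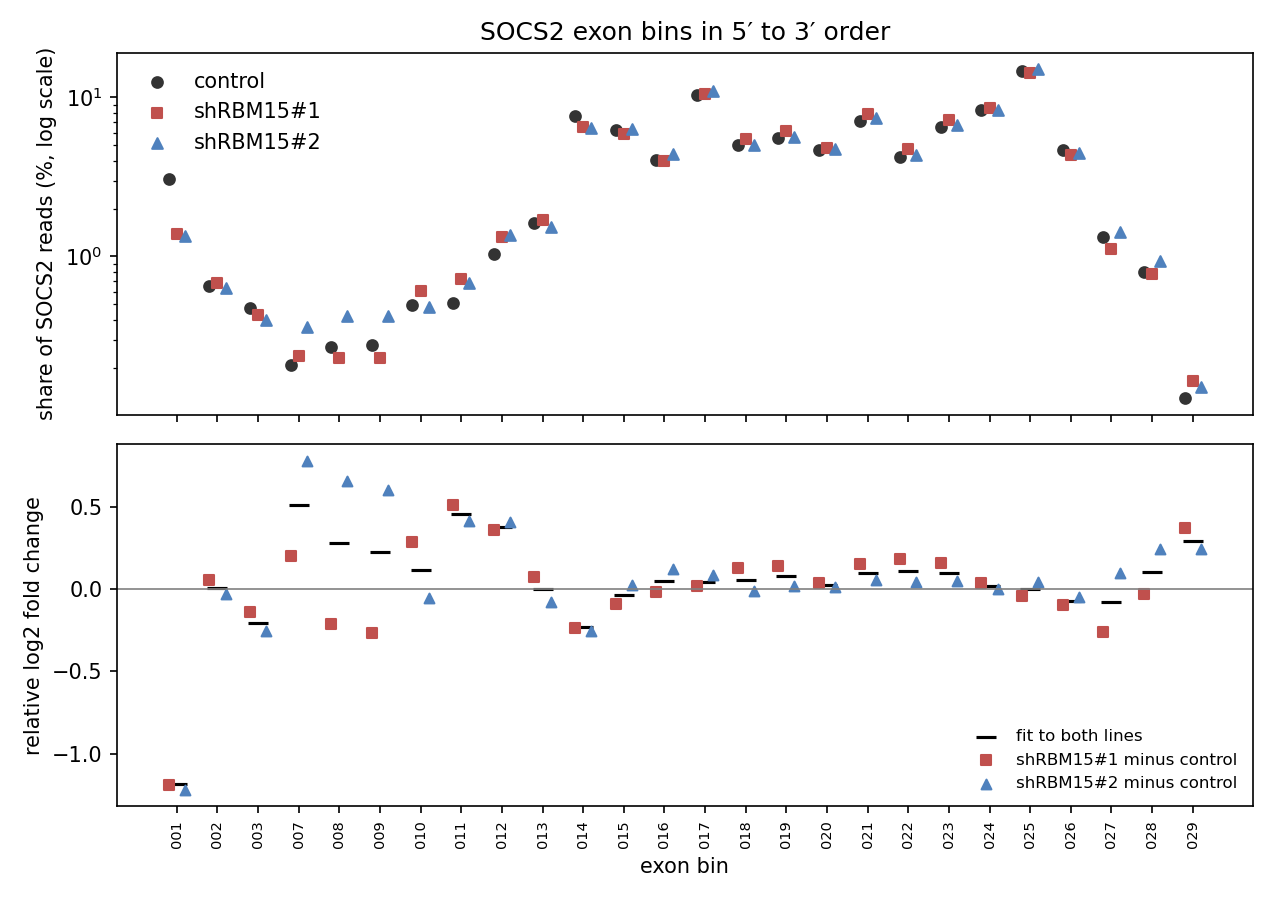
Exon bins of SOCS2 with at least 30 reads, in 5′ to 3′ order. The upper panel gives each bin's share of the SOCS2 reads on a log axis in the control, shRBM15#1 and shRBM15#2, and the lower panel the log2 fold change relative to the gene in each line (symbols) and in the fit to both lines (dash). Bin 001 sits near -1.2 in both lines, and the other bins lie between -0.27 and 0.78.

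In STAT5A, bin 004 (chr17:40440094-40440486, GRCh37, plus strand) is part of the untranslated upstream exon. It had 54, 48 and 66 reads, or 1.09, 1.07 and 1.27 CPM, while the gene as a whole stood near 60% of the control. The relative log2 fold change was 0.82, with an unadjusted p of 0.0352 and an adjusted p of 1. In CPM, the bin stood at 98.3% and 116% of the control. The short bins 005, 006 and 007 next to it, of 20, 10 and 2 bases, had relative log2 fold changes of 1.01, 1.07 and 1.04, with p of 0.0601, 0.0511 and 0.0592. A read over several of these adjoining bins counts in each, so their values are not separate observations. The 3′ part of the same exon, bins 008 and 009, had 80, 41 and 42 and 124, 55 and 61 reads, with relative log2 fold changes of -0.19 and -0.34 and p of 0.612 and 0.306, on the other side of the gene's change from bins 004 to 007. The RNA-seq did not keep the strand, and in GENCODE v44 the first exons of 2 STAT5B transcripts on the other strand, chr17:40439805-40440349 and chr17:40440478-40440651, overlap bin 004, so reads of STAT5A and STAT5B cannot be told apart there.

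In STAT5B, bin 019 (chr17:40369708-40369889, GRCh37, minus strand) lies between 2 coding exons and belongs to transcripts annotated as retained introns. It had 37, 31 and 58 reads, and the bins on both sides of it, 018 and 020, had 47, 34 and 59 and 49, 36 and 55 reads. In CPM, bin 019 stood at 92.6% of the control in the shRBM15#1 line and at 149% in the shRBM15#2 line. The flanking exons, bins 017 and 021, had 366, 177 and 248 and 521, 236 and 322 reads, with both lines below the control. The relative log2 fold change of bin 019 was 1.06, with an unadjusted p of 0.0141 and an adjusted p of 1. The values of bins 018 and 020 were 0.78 and 0.70, with p of 0.0575 and 0.0891. Both adjoin bin 019, and a read over a boundary counts on each side of it.

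In PIM1, no bin passed the study's limits. Bins 005, 006 and 007, first exons of short transcripts inside the fourth intron, had 984 reads together in the control against 284 and 712 in the lines. Exons 4 and 5 beside them had 5229, 1034 and 2389 reads. The ratio was 0.188 in the control against 0.275 and 0.298 in the lines. Bin 007 had the smallest p of the gene, 0.290, at a relative log2 fold change of 0.73.

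The isoform choices best known in these genes showed no difference that could be detected. BCL2L1 gives the long, anti-apoptotic Bcl-xL when the exon ends at its downstream donor and the short, pro-apoptotic Bcl-xS when it ends at the upstream one. The donor windows are shown because they define the 2 forms. They were read from GRCh37 on the minus strand, with the GT of the intron in capitals, at chr20:30309635-30309658 for the short form and chr20:30309446-30309469 for the long form:
Bcl-xS donor: agctttgaacagGTagtgaatgaa
Bcl-xL donor: aacggcggctggGTaagaaccaag

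The 189 bases between these donors occur only in the long form. They had 1173 control reads against 798 and 1252 in the lines, and the coding part before them, which both forms keep, had 1520, 1094 and 1655 reads. The ratio was 0.772, 0.729 and 0.756, close to each other in the 3 libraries. The 2 bins of the long-form stretch had relative log2 fold changes of -0.03 and -0.05, with p of 0.907 and 0.847.

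STAT3 has a full-length alpha form and a beta form that lacks the transactivation domain, made by an acceptor 50 bases further into the exon. The acceptor windows were read from GRCh37 on the minus strand, with the AG of the intron end in capitals, at chr17:40468912-40468939 for the alpha form and chr17:40468862-40468889 for the beta form:
STAT3 alpha acceptor: ctgccccccatttcctacAGaacgacct
STAT3 beta acceptor: gatgtccccccgcactttAGattcattg

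The stretch of 50 bases kept only by the alpha form had 371 control reads against 308 and 434 in the lines. The 63 bases after it, common to both forms, had 244, 209 and 283 reads. The ratio was 1.52, 1.47 and 1.53, and the bins 010, 011 and 012 had relative log2 fold changes between 0.00 and 0.09, with no p under 0.755. A read that crosses 2 bins counts in both, so these ratios compare libraries and are not shares of the forms.

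None of the tested bins of JAK1, JAK2, STAT3, CISH or BCL2L1 passed the study's limits by diffSpliceDGE, and with limma voom 12 of the 246 bins of the 9 genes passed them, against 4.3% of all bins. In JAK1, with 35 tested bins, the relative log2 fold change ranged from -0.36 to 0.22, and bin 026 had the smallest p, 0.402. In JAK2, with 30 tested bins, it ranged from -1.03 to 0.71, and the lowest, bin 027, rested on 19, 5 and 16 reads with a p of 0.0828. In STAT3, with 53 tested bins, the smallest p was 0.132, for bin 052 with 163, 189 and 235 reads. CISH, which shares bins 007 and 008 with MAPKAPK3 on the other strand, had 7 tested bins and 3 without a read, and its smallest p was 0.248, for bin 004. BCL2L1 had 14 tested bins and a smallest p of 0.178, for bin 009 with 104, 89 and 171 reads.

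Of the 9 genes, JAK1, STAT5A and STAT5B each had 1 site in the list of RNA bound by RBM15, and the same 3 sites were found when sites were assigned by position and strand. Of the pathway lists described below, TYK2, PIAS2 and PIAS4 had a site. The list holds 1014 gene symbols, which cover 3.65% of the 24887 genes tested for expression and 11.9% of the 6145 genes at or above the control CPM of JAK2, the lowest of the 9. It holds only sites the authors selected for more reads on one side, so the counts describe the sites and were not tested. The reads of a site are given with 95% exact Poisson intervals, which cover counting error only. The JAK1 site lies in the 3′ UTR (chr1:65299001-65299391, GRCh37, minus strand) and had 11 reads (5.49 to 19.7) in the immunoglobulin library and 446 (406 to 489) in the anti-RBM15 library. The STAT5A site lies in the 3′ UTR (chr17:40462582-40462886, plus strand) and had 9 reads (4.12 to 17.1) and 295 (262 to 331). The STAT5B site lies in an intron (chr17:40373936-40374220, minus strand), 1180 and 2076 bases from the nearest exon bins, and had 11 reads (5.49 to 19.7) and 444 (404 to 487).

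The anti-RBM15 to immunoglobulin read ratio was 40.5 at JAK1, 40.4 at STAT5B and 32.8 at STAT5A. Over the 1463 listed sites with an immunoglobulin read, the median ratio was 31.3, and the middle range ran from 20.7 to 53. By reads in the anti-RBM15 library, the 3 sites ranked 458 (JAK1), 464 (STAT5B) and 691 (STAT5A) of 1515, so they were ordinary members of the list. The total over all sites was 28387 reads in the immunoglobulin library and 807871 in the anti-RBM15 library, and the depth of the whole RIP-seq libraries was not used here.

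**Figure D4:**
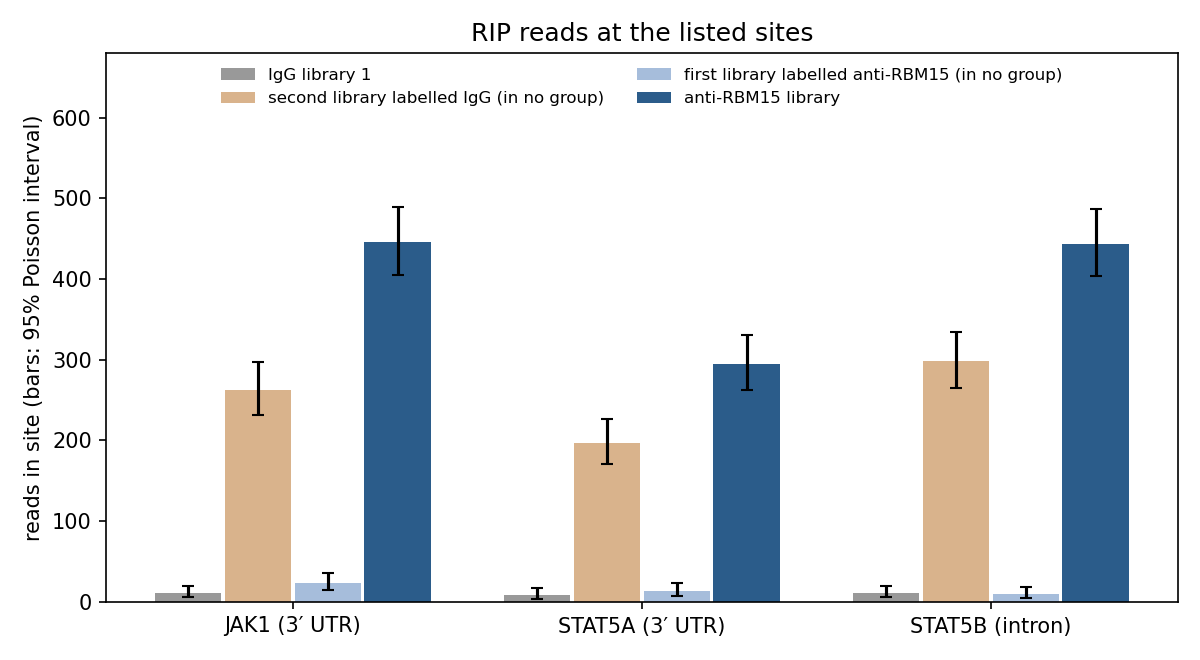
Reads at the listed sites of JAK1, STAT5A and STAT5B in the 4 RIP-seq libraries, with 95% Poisson intervals. The anti-RBM15 library held 446, 295 and 444 reads and the immunoglobulin library 11, 9 and 11, and the 2 libraries that are in no group are drawn in pale colours.

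The STAT5B site is printed because its sequence sets it apart from the other two. Of its 285 bases, 91.9% are A or C, the second highest of the 752 intronic sites, whose median was 62.0%. Runs of CACACACA or longer, searched on the strand of the site, are in capitals and cover 174 of the bases. This motif was in 34.8% of the intronic sites and in 1.64% of the 427 3′ UTR sites. The sites of JAK1 and STAT5A did not hold it, and 46.0% and 43.6% of their bases were A or C. How reads that align to several such repeats were handled was not analysed here.
STAT5B site, GRCh37, chr17:40373936-40374220, minus strand, 5′ to 3′: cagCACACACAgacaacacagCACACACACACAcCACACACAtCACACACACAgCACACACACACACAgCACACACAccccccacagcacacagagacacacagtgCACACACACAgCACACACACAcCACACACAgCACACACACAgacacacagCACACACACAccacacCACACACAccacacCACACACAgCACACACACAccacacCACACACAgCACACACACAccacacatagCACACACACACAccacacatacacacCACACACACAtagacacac

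The exon bins nearest the sites did not pass the study's limits in the knockdown. The JAK1 site lies within the last exon, bin 001, which had 1920, 1785 and 2752 reads and a relative log2 fold change of 0.03 with a p of 0.91, and RAVER2 on the other strand overlaps this bin. The STAT5A site lies in bins 041 and 042 of the last exon, with relative log2 fold changes of 0.02 and -0.08 and p of 0.929 and 0.749. The exons on either side of the STAT5B site, bins 025 and 024, had relative log2 fold changes of 0.02 and -0.14 and p of 0.945 and 0.614.

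The rest of the pathway was taken from 6 lists of 104 genes in all, written with earlier results of these data known. Of these genes, 103 matched an identifier and were tested, all but SOCS7. At an adjusted p under 0.01, 1 of these 103 genes changed by edgeR, against 0.346% of all genes tested. DESeq2 called 11 at this limit, against 2.11% of all genes. The gene called by edgeR was GAB2, an adaptor that links cytokine receptors and BCR-ABL1 to the RAS and PI3K pathways. GAB2 fell by 1.86 ± 0.23 on the log2 scale. It had 12917, 2900 and 4122 reads, or 261, 64.8 and 79.0 CPM, and its adjusted p was 0.00771 by edgeR. GAB1, a related adaptor, was higher, at 5.64 CPM in the control against 20.1 and 16.9 in the lines with an adjusted p of 0.038, and was named after its value was seen. The median of the 13 adaptor genes was -0.25.

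Among the 30 receptors, none passed 0.01 and 2 passed 0.05, against 0.346% and 1.74% of all genes. The 2 were IL7R, named as the largest change, and CSF2RA, named after its value was seen. CSF2RA, the alpha chain of the GM-CSF receptor, was at 42.0 CPM in the control against 12.3 and 12.99 in the lines, a log2 fold change of -1.73 ± 0.26 with an adjusted p of 0.0155. IL7R, the receptor of interleukin-7, was at 0.909, 6.48 and 7.09 CPM, a log2 fold change of 2.90 ± 0.43 with an adjusted p of 0.0157. PRLR and IL21R followed in size, at 2.25 and 1.96 with adjusted p of 0.159 and 0.162 by edgeR. PRLR rested on few reads, with 16 in the control against 96 and 50, and IL21R had 100, 179 and 610. Their lines differed, at 2.69 in shRBM15#1 and 1.54 in shRBM15#2 for PRLR, and 0.98 and 2.53 for IL21R. EPOR, which uses JAK2, was at 12.3, 16.4 and 12.9 CPM, with an adjusted p of 0.701. The median of the list was 0.53, and 19 of the 30 were higher in both lines, as were 39.7% of all 24887 genes. Among the receptors lowest in the control, PRLR and CRLF2, both at 0.323 CPM, had log2 fold changes of 2.25 and 1.61. Those of LEPR, IFNGR1 and IFNAR1, the most abundant at 696, 101 and 92.9 CPM, were -0.10, -0.39 and 0.53. CRLF2, LEPR, IFNGR1 and IFNAR1 were named after their values were seen. The part of level in this median was not tested.

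None of the 6 other JAK and STAT genes passed, and their median was -0.02, or 0.13 without the shRBM15#1 line and -0.16 without the shRBM15#2 line. The 3 named by size were JAK3 at 0.586, 2.32 and 1.30 CPM, STAT4 at 3.31, 6.72 and 3.89 CPM, and TYK2, the kinase of the interferon receptors, at 220, 152 and 189 CPM, with adjusted p of 0.201, 0.441 and 0.434. None of the 17 negative regulators passed 0.01 or 0.05, which 0.346% and 1.74% of all genes passed, and their median was -0.29. PTPN6, the phosphatase SHP-1, was at 189, 52.3 and 116 CPM with an adjusted p of 0.170 by edgeR and 0.00229 at the lowest over the settings tried. SOCS3 was at 17.1, 38.02 and 29.7 CPM and SOCS1 at 12.5, 7.22 and 6.42 CPM, so that these feedback genes lay on opposite sides of their controls, with adjusted p of 0.134 and 0.194.

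**Figure D5:**
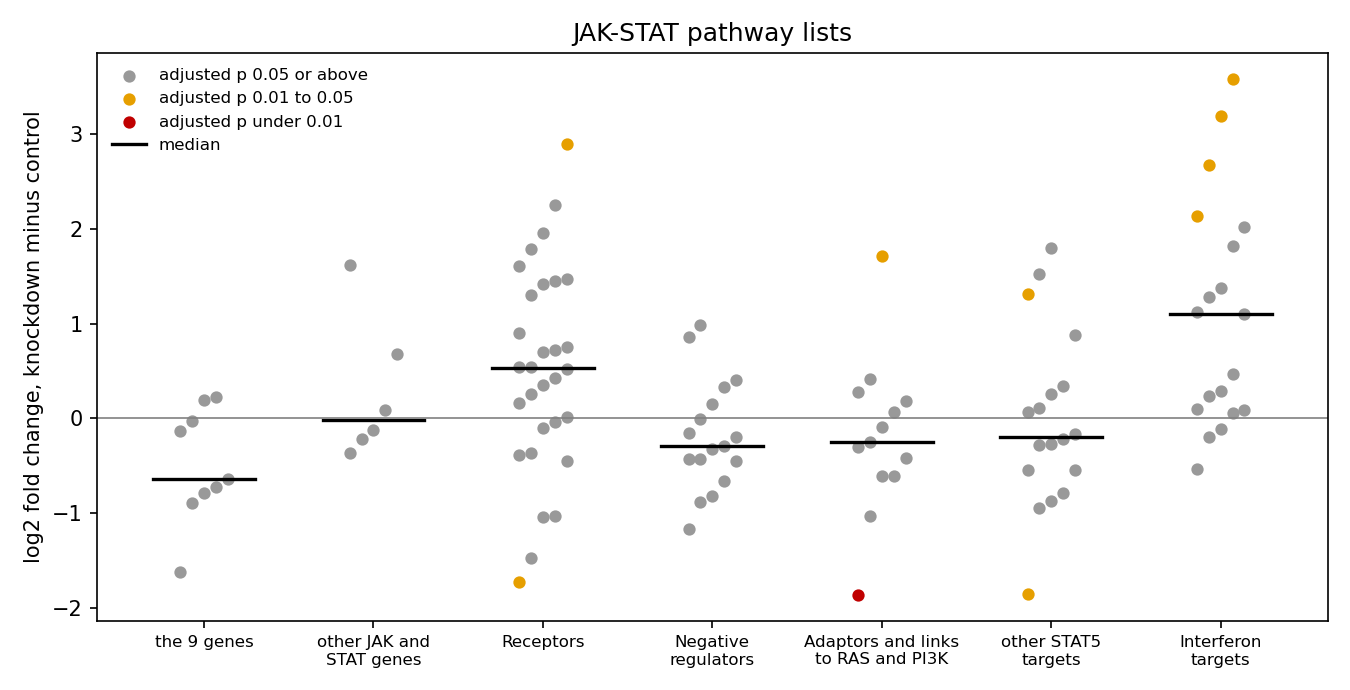
Log2 fold change (knockdown minus control, fit to both lines) of each tested gene in the set of 9 and in the 6 pathway lists, with the median of each as a line and colours for the adjusted p. GAB2 is the only point under an adjusted p of 0.01, and the interferon targets have the highest median, 1.10, which is 0.47 without the shRBM15#2 line against 0.44 for the receptors.

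The 18 further STAT5 targets had a median of -0.19, or -0.30 without the shRBM15#1 line. None passed 0.01, which 0.346% of all genes passed. BCL2, the anti-apoptotic relative of BCL2L1, was at 48.1 CPM in the control against 13.9 and 12.8 in the lines, a log2 fold change of -1.85 ± 0.25 with an adjusted p of 0.012. TFRC, the transferrin receptor that erythroid cells need for iron, was at 526, 1202 and 1414 CPM, a log2 fold change of 1.31 ± 0.24 with an adjusted p of 0.036, and was named after its value was seen. IGF1 and CDKN1A, named by size, had log2 fold changes of 1.79 and 1.53 and adjusted p of 0.133 and 0.223 by edgeR. The lines differed for CDKN1A, at 0.49 in shRBM15#1 and 2.12 in shRBM15#2, while IGF1 was at 1.92 and 1.63. IGF1 rested on few reads, with 30 in the control against 104 and 99. Of this list, 9 genes were lower in both lines and 4 were higher, where 39.6% of all genes were lower and 39.7% higher in both.

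The 19 interferon targets had a median of 1.10, beside 0.02 over all genes, and it was 0.47 without the shRBM15#2 line. Of these genes, 14 were higher in both lines, as were 39.7% of all genes. None passed 0.01, against 0.346% of all genes. At 0.05, 4 passed, all higher in the lines, against 1.74% of all genes in either direction. CXCL10 had 13, 164 and 141 reads, OAS2 14, 92 and 165, GBP2 543, 1809 and 5203, and GBP1, named after its value was seen, 211, 988 and 805. Their adjusted p were 0.0209, 0.0371, 0.0393 and 0.0268 by edgeR. CXCL10 and OAS2 thus rested on few reads in the control.

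The genes whose pair of changes was most like that of STAT5A were sought among the 34 list genes within 4-fold of its level per length in the control, by the distance between the log2 fold changes in the 2 lines. The 3 nearest were PIM3, OSM and LIF, all from the list of STAT5 targets, at distances of 0.27, 0.30 and 0.43, and 11 of the 34 candidates came from that list. SOS1, an adaptor, and IL2RG, a receptor chain, both named after their values were seen, followed closely at 0.45. PIM3 was at 41.0, 27.3 and 28.9 CPM, OSM at 38.9, 23.6 and 18.9 CPM and LIF at 76.6, 45.8 and 33.9 CPM, with adjusted p of 0.276, 0.147 and 0.117. The likeness rests on 2 lines that share 1 control library and was not tested.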

How the data were processed

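The authors aligned the RNA-seq reads, which carry no strand, to GRCh37. The files they deposited hold raw counts for each bin of Ensembl gene models, and read counts at selected RIP-seq sites in hg19. Columns of their own fold changes and p-values were not used. Counts were summed per gene, so that a read over several bins counts in each, matched by identifier to symbols, and fitted with edgeR 4.0.16 in R 4.3.3 (TMM, quasi-likelihood test, Benjamini-Hochberg over all genes with at least 30 reads). Bins were fitted with diffSpliceDGE. Lines 35 and 36 were compared together with library 34. The bin use, which the authors tested with DEXSeq, was tested here with edgeR because DEXSeq was not installed. Fold changes of a single line added 0.5 reads. The fits were tested on simulated data. Alternatives were DESeq2 1.42.0, its size factors, limma 3.58.1 (voom), other count and bin-width minimums, and leaving out each line.

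The members and gene lists were chosen with earlier results of these data known. Named in the text are the 9 members, RBM15, list genes at an adjusted p under 0.01 or else the 3 largest changes of a list in one direction in both lines, EPOR, the 3 genes most like STAT5A, and member bins past the limits or with the smallest p. Genes outside this rule were named after their values were seen: cell type markers, list genes with a listed site, genes that overlap a described bin, and those marked so in the text. Reads on lines that name no gene were left out, and some genes of the lists are not reported here.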

Additional observations from a re-analysis of the deposited data

Results flagged for a closer look

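A RIP-seq library labelled as normal immunoglobulin but placed in no group held more reads than the immunoglobulin library at all 3 sites. In the authors' comparison it lies on the side for which the sites were selected to have more reads, so that selection fixed this excess. It had 263 reads at the JAK1 site, 298 at the STAT5B site and 197 at the STAT5A site, each with a 95% Poisson interval above that of the other immunoglobulin library. The remaining library without a group, labelled with the RBM15 antibody, had 24, 10 and 14 reads at the same sites. Over all 1515 listed sites, the sums were 610915 and 28845 reads. The labels of these libraries could not be checked.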

How the results depend on the processing

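The number of the 9 genes called at an adjusted p under 0.01 was 0, and it was 1 (PIM1) without a filter on low counts and 1 (PIM1) with DESeq2, and the cause was not tested. Of the pathway lists, 1 gene was called, against 5 with DESeq2's size factors, 12 without the filter, 2 with bins of at least 100 bp, 11 with DESeq2 and 10 at an adjusted p under 0.05. The 3 bins past the limits became 1 with bins of at least 300 reads, 12 with limma voom and 1 at an adjusted p under 0.05. Over all genes, 86 were called, against 191 with size factors, 801 without the filter, 132 with wider bins and 525 with DESeq2. At an adjusted p under 0.05, 432 of all genes passed, or 1.74%. Over all bins 3392 passed, against 8733, 736 and 10069 with any read, 300 reads and limma voom. At an adjusted p under 0.05, 48 of all bins passed. Without the filter, genes tested rose from 24887 to 53542 and their median log2 fold change rose by 0.42, while PIM1 kept its sign at -1.73. The log2 fold change of RBM15 ranged from -1.06 to -0.90 over the settings, and from -0.98 to -0.87 with 1 line left out. No paired analysis was possible because the groups share fewer than 2 replicate numbers. A single control library limits every comparison, and its own spread is not measured.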
